A study of Ovis aries with 18 samples.

Results

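In all, 105 of 20477 sheep genes were at least 4 times as abundant in soleus (SOL) as in longissimus lumborum (LL) and in psoas major (PM), with a SOL mean of at least 10 FPKM. FPKM counts the reads of a gene per kilobase of its length and per 1000000 reads of the library. The rule sets 5 of these genes aside, the most abundant one and 4 others, and the remaining 100 soleus-enriched genes are described here. The genes were chosen by their mean FPKM in SOL and by its ratio to the means in LL and PM, over all 18 libraries. Every statement on SOL against the other muscles is therefore a description of how the genes were chosen and not a finding. All 100 genes passed the filter on low values, a mean of at least 0.1 FPKM, which kept 15434 genes for testing.

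The libraries were made from ribosome-depleted RNA of lambs, with 6 libraries for each of the 3 muscles. The muscles were taken on the left of the carcasses, and the labels give no breed, age, sex or treatment. LL runs along the back in the loin, PM is the tenderloin, and SOL is a small muscle of the lower hind leg. Libraries are numbered 1 to 6 in each muscle, and the labels do not tie a number to an animal.

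Skeletal muscles are built from slow fibres, which contract slowly, resist fatigue and burn fat and sugar with oxygen, and from fast fibres, which rely more on glycolysis. The fibre types carry different forms of myosin, troponin and calcium pumps, and soleus, which holds posture, is the textbook example of a muscle rich in slow fibres. Muscles also differ by their position in the body, their tendon and fat content, and their nerve and blood supply. The deposited table names genes only by Ensembl identifier, and 0 of its identifiers matched the RefSeq gene table used. Lists of slow and fast fibre genes, limb patterning genes and markers of fat, tendon, vessel, nerve and immune cells could not be applied, so neither the muscle labels nor a content of other cells was checked by marker genes. A level in such bulk RNA does not tell apart more cells of a type from more RNA per cell.

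Library totals ran from 10216739 to 14747118 reads. Some libraries stood apart over all genes. LL 3 correlated least with the other LL libraries (mean r across genes 0.872, against 0.885 to 0.902 for the other 5), and SOL 5 had reads for 14181 genes, where the other SOL libraries had reads for 14959 to 15421. For 11 genes abundant in LL and PM and under 1% of that level in the other SOL libraries, SOL 3 held more than 1%. The choice of these 11 genes sets the other SOL libraries under 1%, so this describes SOL 3 and is no test. The median ratio of a soleus-enriched gene in SOL 3 to its mean in the other 5 SOL libraries was 0.873. In SOL 1 it was 0.852, and a link of these ratios to the 11 genes was not tested. Over the 6708 tested genes with a SOL mean of at least 10 FPKM, used below as genes of like level, these ratios were 0.942 and 0.963. Like level refers to this minimum in SOL alone, and levels in LL and PM were not matched.

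The soleus-enriched genes covered a wide range of abundance. Their SOL means ran from 10.4 to 14014 FPKM with a median of 34.3, and 44 of them lay below 30 FPKM, 29 between 30 and 100, and 27 at 100 or above. In LL the means ran from 0.0647 to 851 FPKM (median 4.23) and in PM from 0.492 to 931 FPKM (median 6.17). Just 5 of the genes were among the 100 most abundant of SOL. Together the 100 genes made up 5.64% ± 0.730 of the summed FPKM of a SOL library (SD, n = 6). The share was 0.668% ± 0.146 for PM libraries and 0.488% ± 0.136 for LL libraries. As a share of reads, which weights long genes more, the values were 4.86% ± 0.619, 0.743% ± 0.106 and 0.577% ± 0.104. A single gene, ENSOARG00020004484, held much of this, and without it the share of summed FPKM in SOL was 3.16% ± 0.267.

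**Figure D1:**
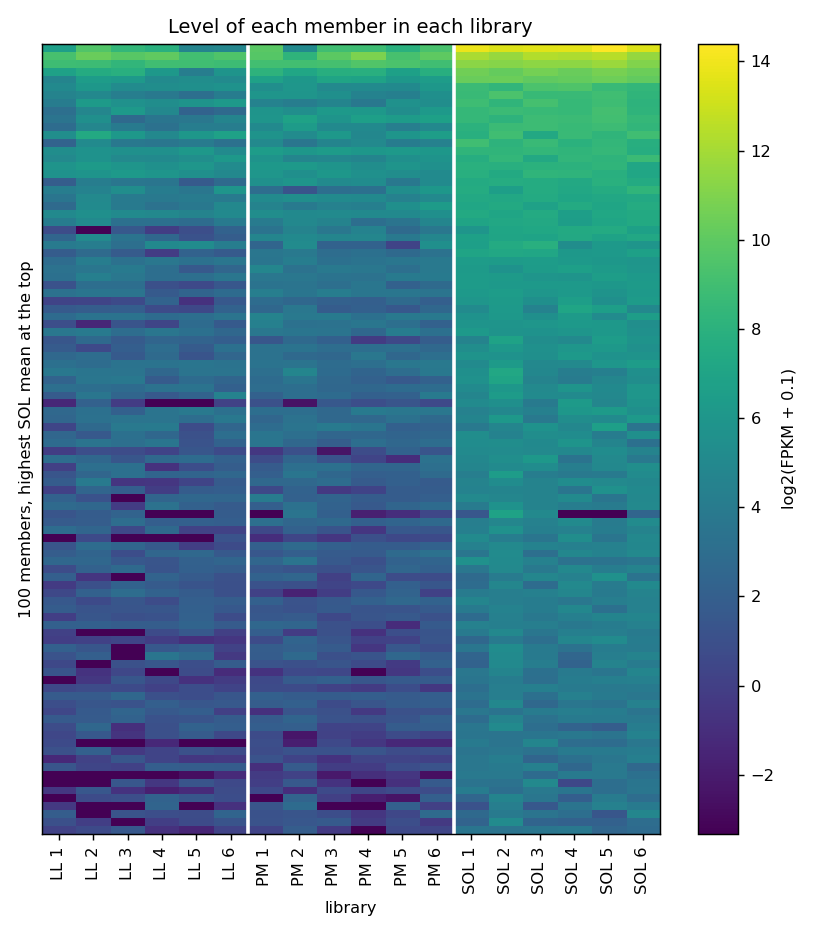
Heat map of the 100 soleus-enriched genes (rows, highest SOL mean at the top) in the 18 libraries (columns, grouped as LL, PM and SOL), coloured by log2(FPKM + 0.1). The SOL block is brighter in nearly every row, as the choice of genes requires, and dark cells in LL and PM mark libraries with few or no reads, while 1 row near the middle is dark in SOL 4 and SOL 5 as well.

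ENSOARG00020004484 (length 802 bp in the table) was the most abundant of the genes described here, with rank 4 in SOL among all genes. It stood at 11268 FPKM in the lowest SOL library, 12479 in the median and 21477 in the highest, SOL 5. In PM its lowest, median and highest values were 33.9, 487 and 932 FPKM, and in LL 24.8, 171 and 778 FPKM. No LL or PM library came near any SOL library, while the 12 LL and PM libraries were themselves spread over a wide range. It also had the largest ratio of the SOL mean to the larger of the LL and PM means, 30.04. The log2 difference was 6.72 (SE 0.77) from LL and 5.404 (SE 0.77) from PM.

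ENSOARG00020007443 (1409 bp) came next in abundance and was enriched far less. Its lowest, median and highest values were 3044, 4549 and 5737 FPKM in SOL, 292, 899.5 and 1884 in PM, and 533, 809 and 1293 in LL. SOL did not overlap with either muscle, but the SOL mean was only 4.71 times the PM mean. PM 2 was the lowest PM library for both this gene and ENSOARG00020004484.

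The second largest ratio belonged to a gene of low abundance. ENSOARG00020020622 (1365 bp) had lowest, median and highest values of 7.24, 14.3 and 15.7 FPKM in SOL and 0.0633, 0.501 and 1.01 FPKM in PM. In LL it had no read in 4 libraries, 1 read in LL 5 and 5 reads in LL 6. A count of 0 there allows up to 3 reads, or 0.171 to 0.215 FPKM, by counting error only. The SOL mean was 25.5 times the PM mean. Its difference between PM and LL, 52 reads against 6, did not pass the test given below (log2 difference 1.81, SE 0.51, limma adjusted p = 0.079).

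Enrichment was mostly near the lower limit of the rule. The median ratio of the SOL mean to the larger of the LL and PM means was 5.82. For 53 genes the ratio was under 6, and for 18 it was 10 or more. Nearest inside the limit on level were ENSOARG00020008245 at 10.4 FPKM and ENSOARG00020004197 at 10.6, and nearest outside were ENSOARG00020015487 at 9.79 and ENSOARG00020004398 at 9.67. For the ratio to LL the nearest inside were ENSOARG00020021658 (4.10) and ENSOARG00020008975 (4.18), and the nearest outside ENSOARG00020003466 (3.998) and ENSOARG00020025205 (3.95). For the ratio to PM they were ENSOARG00020022275 (4.02) and ENSOARG00020011948 (4.05) inside, and ENSOARG00020006932 (3.98) and ENSOARG00020005756 (3.97) outside. The genes thus shade into their neighbours without a gap.

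Every SOL library lay above every LL and PM library for 85 of the 100 genes, where 4.25% of all tested genes did so. In limma fits over all genes, 99 were called higher in SOL than in LL (background 17.1%) and 96 higher than in PM (background 11.0%), which the rule largely sets. The median log2 difference was 3.06 from LL and 2.72 from PM, beside 0.24 and 0.15 over all tested genes. ENSOARG00020025540 was called in neither comparison, and ENSOARG00020012814, ENSOARG00020017479 and ENSOARG00020021658 were not called against PM. All 4 are among the 15 genes whose libraries overlapped.

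PM and LL, the muscles in which these genes were low, were compared with each other because the rule did not use that difference. It does limit both means, since the SOL mean must be at least 4 times each of them. All tested genes and genes of like level, given beside the 100, are not held to this limit. Calls were found in 1 direction, with PM higher. Of the 100 genes, 11 were called higher in PM and 0 higher in LL (limma on log2(FPKM + 0.1), 1 coefficient per muscle, Benjamini-Hochberg adjusted p under 0.05 over all genes). Over all tested genes 1.48% were called, 0.933% higher in PM and 0.551% higher in LL. Among genes of like level 1.57% were called higher in PM and 0.880% higher in LL. At an unadjusted p under 0.05 the counts were 31 higher in PM and 3 higher in LL, beside 7.41% and 5.24% of all genes. With limma's voom on recovered reads 9 of the 11 were called, and no others of the 100, beside 0.945% of all genes called higher in PM. With the replicate number as a block 16 of the 100 genes were called higher in PM, the 11 among them, beside 1.67% of all genes.

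Most of the 100 genes had a PM value above LL, the majority of them without a call. The log2 difference of PM minus LL was above 0 for 70 of the 100 genes, where 56.8% of all tested genes and 49.9% of genes of like level were above 0. Its median was 0.35, beside 0.06 over all tested genes and -0.00075 over genes of like level. Even so, PM and LL means lay within 1.5-fold of each other for 58 genes. PM was at least 2-fold above LL for 16 genes and LL at least 2-fold above PM for 1 gene, ENSOARG00020015398, which was not called (log2 difference -1.40, limma adjusted p = 0.22).

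**Figure D2:**
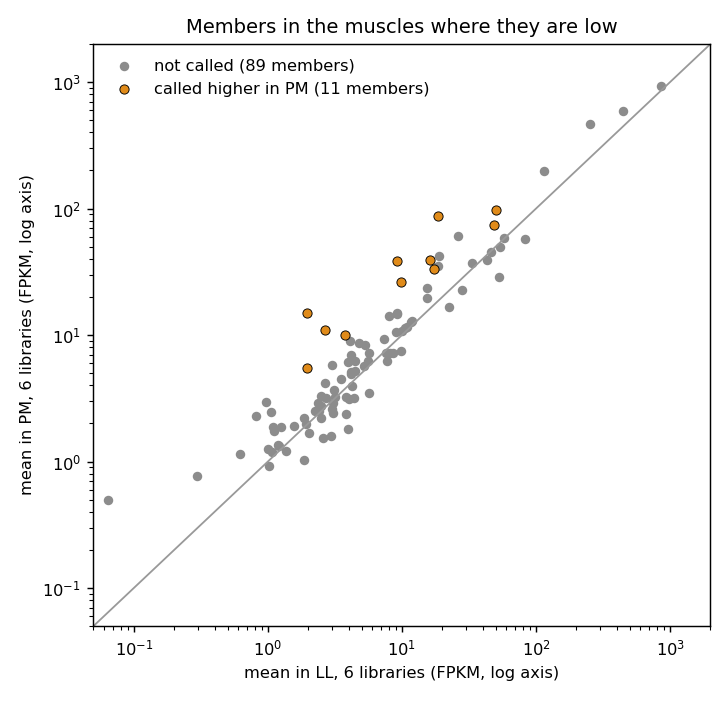
Mean level in LL (x axis) against mean level in PM (y axis) of the 100 soleus-enriched genes, both in FPKM on log axes, with the line of equal levels in grey. The 11 genes called higher in PM (orange) lie above the line at LL means between 1.97 and 50.2 FPKM, and no called gene lies below it.

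The 11 genes were well expressed in SOL, with SOL means of 61.0 to 1247 FPKM. By level, 0 of 44 genes under 30 FPKM, 2 of 29 genes at 30 to 100 FPKM and 9 of 27 genes at 100 FPKM or more were called. Among all tested genes with a SOL mean of at least 100 FPKM, 7.01% were called higher in PM. For these 11 genes LL stood at 1.47% to 16.2% of the SOL mean and PM at 7.78% to 24.7%. Their means followed the order LL, PM, SOL, which the call and the rule together largely set. In each of the 11 every SOL library was above every PM and LL library. This held for 85 of the 100 genes, 25 of the 27 at 100 FPKM or more, and 4.25% of all tested genes. The calls favour genes steady in SOL, since the error of the fit includes the SOL spread. Their log2 differences between PM and LL ran from 0.64 to 3.42.

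ENSOARG00020008942 (1369 bp) had the largest of these differences. Its lowest, median and highest values were 0, 1.77 and 4.65 FPKM in LL, 6.88, 12.9 and 23.7 in PM, and 60.05 to 183 with a median of 141 in SOL. The 3 muscles formed separate steps with no library out of place. The log2 difference of PM from LL was 3.42 (SE 0.63, limma adjusted p = 0.0054). LL 2 had no read, which allows up to 0.171 FPKM.

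ENSOARG00020009249 (1057 bp) was the most firmly called. It stood at 6.39, 12.3 and 44.4 FPKM in the lowest, median and highest LL library, at 57.6, 93.0 and 117 in PM, and at 285, 392 and 511 in SOL. Again no libraries overlapped between muscles, and the mean in PM, 87.7 ± 24.6 FPKM, was 4.70 times the mean in LL, 18.7 ± 14.1 (SD, n = 6 each). The log2 difference was 2.47 (SE 0.33, limma adjusted p = 0.00031).

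ENSOARG00020024056, with a SOL mean of 2617 FPKM, was the third gene in which every PM library exceeded every LL library, where 0.719% of all tested genes did so, and it is named after its values were seen. It ranged from 509 to 774 FPKM in PM and from 319 to 499.7 in LL, a small and regular difference that was not called (log2 difference 0.41, SE 0.15, limma adjusted p = 0.23). Every LL library was above every PM library for 0 of the 100 genes, beside 0.609% of all tested genes.

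**Figure D3:**
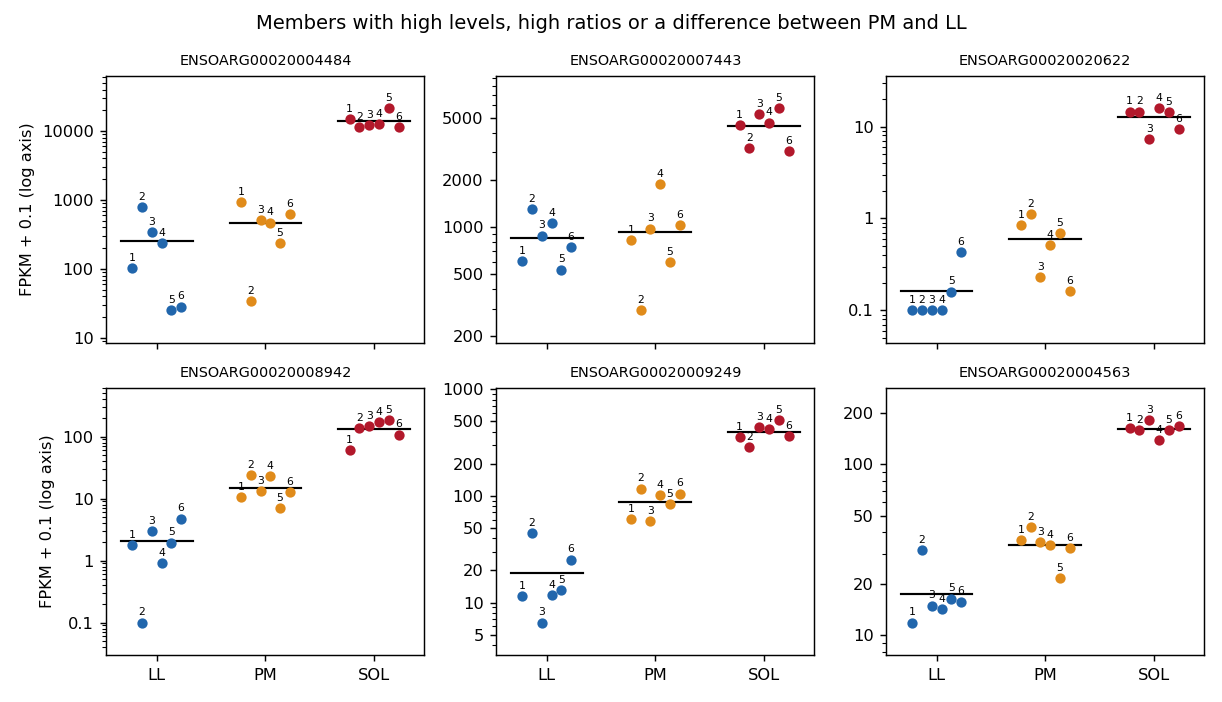
Level in each library (FPKM + 0.1, log axis; digits are replicate numbers, bars are means of 6) of 6 genes in LL, PM and SOL. ENSOARG00020008942 and ENSOARG00020009249 form 3 separate steps, whereas LL and PM overlap in the other 4 genes, and SOL is above both in all 6.

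The number of genes called between PM and LL changed when single libraries or all SOL libraries were left out. It was 6 without PM 1 and 6 without PM 2. A fit on the 12 PM and LL libraries alone called 4 of the 11. In that fit 0.863% of all genes were called in either direction and 0.487% higher in PM, beside 0.933% higher in PM with SOL included. The loss of the spread shared with SOL cannot be told apart there from the smaller number of libraries. ENSOARG00020004563, ENSOARG00020008942, ENSOARG00020009249 and ENSOARG00020011756 were called under each of the 27 alternatives tried.

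Soleus libraries varied widely in some of these genes and hardly at all in others. The coefficient of variation over the 6 SOL libraries, the SD divided by the mean, ran from 0.0863 to 1.76 with a median of 0.33. It was under 0.2 for 19 genes, from 0.2 to 0.5 for 52, and 0.5 or more for 29, beside 3.32% of genes of like level at 0.5 or more. The median over genes of like level was 0.192. The rule works on means, so that a gene can meet it through 1 high library, and these counts are a description with no test. Variation went with low abundance, and the median SOL mean was 77.3 FPKM for the 19 genes under 0.2 and 23.4 FPKM for the 29 genes at 0.5 or more.

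The steadiest gene was ENSOARG00020004563 (3711 bp). It ranged from 138 to 180 FPKM in SOL (median 160.5), from 21.5 to 42.8 in PM (median 34.2) and from 11.8 to 31.5 in LL (median 15.2). LL 2 was its only LL library within the PM range, and PM was called higher than LL (log2 difference 0.99, SE 0.19, limma adjusted p = 0.0069). ENSOARG00020012469 (924 bp) was nearly as steady in SOL, at 66.2 to 85.6 FPKM (median 72.3), with 4.53 to 12.2 in PM (median 9.67) and 1.42 to 8.26 in LL (median 2.41). Its PM and LL libraries overlapped and it was not called between them (log2 difference 1.38, SE 0.36, limma adjusted p = 0.058).

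At the other end stood ENSOARG00020025540 (408 bp). It reached 117 FPKM in SOL 2 and 32.6 in SOL 3, stood at 2.73 in SOL 1 and 5.30 in SOL 6, and had no read in SOL 4 and SOL 5. In PM it was 11.2 FPKM in PM 2 and 4.19 in PM 3 and at most 1.27 in the other PM libraries. LL ranged from 0 to 4.798 FPKM with a median of 2.97, with LL 4 and LL 5 at 0. The median SOL library, 4.01 FPKM, was thus little above the median LL library, and the mean of 26.25 FPKM came from SOL 2 and SOL 3. ENSOARG00020004197 (1182 bp) was of the same kind, with 36.9 FPKM in SOL 2 and 4.42 to 7.77 in the other 5 SOL libraries, although all 6 still lay above the highest PM library at 3.12 and the highest LL library at 2.27.

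**Figure D4:**
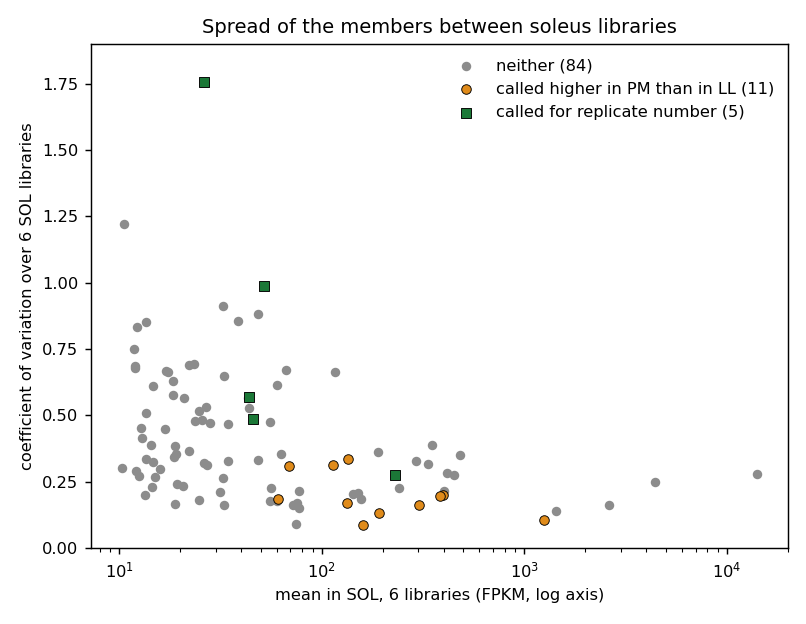
Mean level in SOL (x axis, FPKM on a log axis) against the coefficient of variation over the 6 SOL libraries (y axis) for the 100 soleus-enriched genes. The 11 genes called higher in PM than in LL (orange), by a fit whose error includes the SOL spread, lie at 0.336 or below, and the 5 genes called for replicate number (green squares) run from 0.275 to 1.76.

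SOL 2 was the highest library for many variable genes, among the 100 and among other genes of like level and spread alike. Over all 100 genes SOL 2 was highest for 26, beside 29.3% of genes of like level. Of the 29 genes with a coefficient of variation of 0.5 or more, 13 were highest in SOL 2, and 11 of these were highest in PM 2 among the PM libraries. Among all 223 genes of like level and spread, the 29 included, 45.7% were highest in SOL 2 and 29.6% in both SOL 2 and PM 2. Of the 194 without the 29, 89 were highest in SOL 2 and 55 in both, and the difference was not tested. Leaving out SOL 2 took 13 of the 100 genes out of the rule, ENSOARG00020025540, ENSOARG00020004197 and ENSOARG00020016763 among them. Leaving out any other single library took out 0 to 7, and 73 of the 100 genes met the rule whichever of the 18 libraries was left out.

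Whether libraries of one number deviate together was asked for each gene. The rule used muscle means and is not wholly independent of this, since a high SOL 2 brought 13 of the genes in. Of the 100 genes, 5 were called (limma F-test of the replicate number with muscle in the model, adjusted p under 0.05 over all genes), beside 1.89% of all tested genes and 2.73% of genes of like level. At an unadjusted p under 0.05 the count was 26 of 100, beside 16.4% of all genes. Of the 87 genes that met the rule without SOL 2, 3 were called, and the other 2 calls were ENSOARG00020025540 and ENSOARG00020016763. None of the 5 was among the 11 genes called between PM and LL.

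In ENSOARG00020002205 (3129 bp) the libraries numbered 2 and 6 were high in every muscle. They stood at 82.3 and 64.7 FPKM in SOL against 26.3 to 36.2 in the other SOL libraries, at 12.2 and 22.6 in LL against 2.98 to 5.41, and at 8.51 and 14.7 in PM against 4.21 to 7.27 (limma adjusted p = 0.0038). ENSOARG00020007692 (1291 bp) showed another pair, with numbers 4 and 5 at 65.2 and 81.8 FPKM in SOL against 21.3 to 44.2 in the rest (limma adjusted p = 0.0042). In LL these numbers stood at 11.0 and 14.3 FPKM, above the other LL libraries at 4.25 to 9.41, and in PM at 14.8 and 12.8, beside PM 6 at 13.2. The high libraries differed between these 2 genes, so no single number was high in all 5 called genes. SOL 2 was the highest SOL library for 3 of the 5. PM 2 was the highest PM library for 2 of them and LL 2 the highest LL library for 0.

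The other 3 genes are named because they complete the count. In ENSOARG00020025540 numbers 2 and 3 were the highest in SOL and PM (limma adjusted p = 0.011). In ENSOARG00020020860 (5763 bp) number 6 was the lowest in every muscle, at 141 FPKM in SOL, 36.1 in PM and 31.4 in LL, and number 3 was the highest in every muscle, at 301, 66.2 and 74.6 FPKM (limma adjusted p = 0.023). ENSOARG00020016763 (5107 bp) was highest in SOL 2 (154 FPKM) and PM 2 (27.1 FPKM) and lowest in SOL 4, PM 4 and LL 4 at 18.2, 5.19 and 6.01 FPKM (limma adjusted p = 0.043). This last call was kept in 8 of 26 alternatives, with an adjusted p of 0.00071 to 0.42 over them, and was lost without SOL 2 (limma adjusted p = 0.105) and without PM 2 (limma adjusted p = 0.144).

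**Figure D5:**
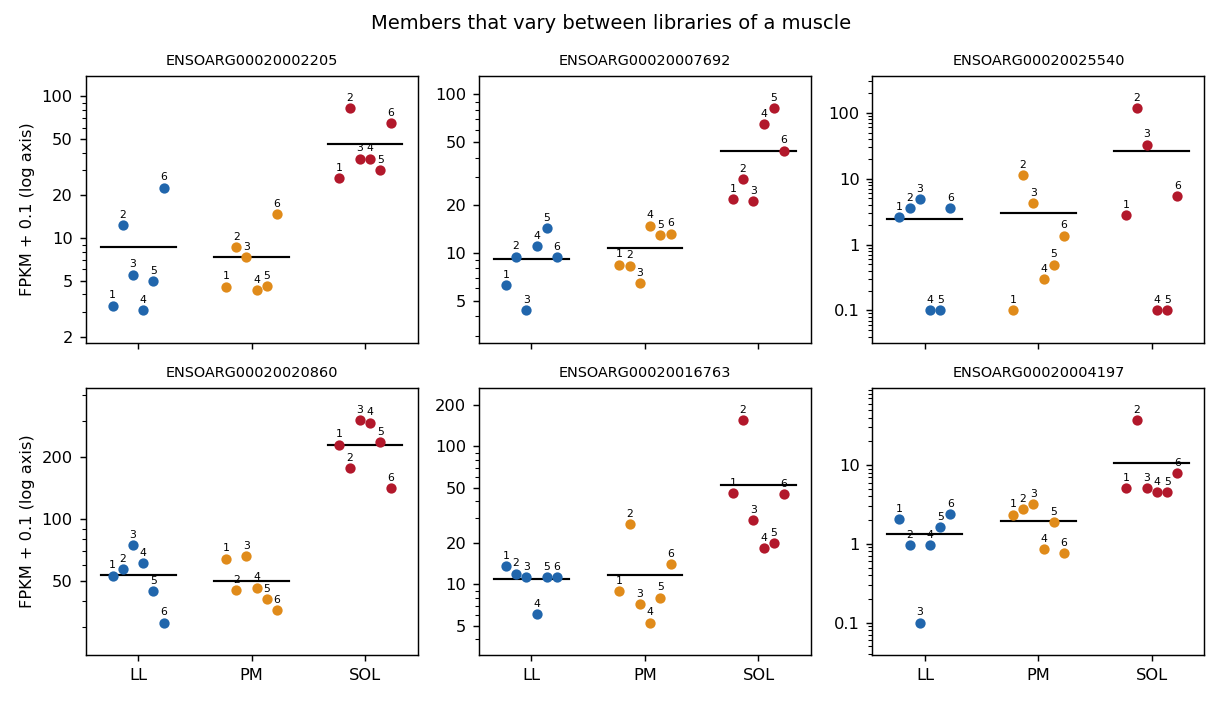
Level in each library (FPKM + 0.1, log axis; digits are replicate numbers, bars are means of 6) of the 5 genes called for replicate number and of ENSOARG00020004197. The same numbers are high or low in several muscles in the first 5 genes, such as 2 and 6 in ENSOARG00020002205, while ENSOARG00020004197 is high in SOL 2 alone at 36.9 FPKM.

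These 5 calls were not kept in a fit without SOL. In a fit on the 12 PM and LL libraries, 1 of the 100 genes was called, and it was none of the 5. Over all genes 0.474% were called in that fit, beside 1.89% in the fit on 18 libraries. The part of SOL in the 5 calls cannot be told apart from the smaller number of libraries. With voom on recovered reads 19 of the 100 genes were called, the 5 among them, beside 3.60% of all genes, and 14 of the 87 that met the rule without SOL 2.

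The number of the highest library was also compared between muscles. The same number was highest in SOL and PM for 25 of 100 genes, beside 25.2% of all tested genes, in SOL and LL for 21, beside 21.0%, and in PM and LL for 26, beside 23.0%. Correlations among the 100 genes were also close to those of genes of like level. The median correlation between 2 of them over the 6 SOL libraries was 0.047, and 5.09% of pairs lay above 0.8, beside 0.090 and 5.00% for genes of like level. These correlations are across 6 libraries that all genes share.

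In LL and PM the genes differed between libraries of the same muscle. In LL 1 a gene stood at a median of 0.683 of its mean in the other LL libraries and in LL 2 at 1.21, whereas genes of like level stood at 0.966 and 0.983. In PM 4 the median was 0.735 and in PM 2 1.25, beside 0.882 and 1.07 for genes of like level. By number of genes, LL 2 was the highest LL library for 32, beside 20.9% of genes of like level. PM 2 was the highest PM library for 38, beside 28.9%. The 2 most abundant genes were lowest in PM 2, and the share of summed FPKM was lowest in PM 2 among the PM libraries, at 0.459%, and highest in PM 4, at 0.842%.

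Reads were few in LL for some of the genes. Over the 6 LL libraries a gene had 6 to 154349 reads (median 650), over PM 51 to 212982 (median 806.5) and over SOL 324 to 998045 (median 5388.5). At least 1 LL library had no read for 19 genes and at least 1 PM library for 6. In SOL this was so only for ENSOARG00020025540.

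The gene lengths recovered from the table ran from 108 to 15960 bp with a median of 1413 bp, beside 1551 bp for genes of like level. A length under 1000 bp was found for 31 of the 100 genes and for 27.5% of genes of like level, and a length divisible by 3 for 48 and for 43.5%.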

How the data were processed

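RNA from 18 sheep muscle libraries was analysed. Per the labels' protocols, adapters and poor-quality bases were removed with Cutadapt, HISAT2 (2.2.1) placed the reads on the sheep genome and StringTie (2.2.0) built transcripts. What build, annotation, counting program and strand setting were used is not given in the sources used here, and reads of overlapping or near-identical genes could not be told apart. The deposited values are FPKM, tested on the values because the header names no unit. Whole reads, gene lengths and library totals were recovered from them for 15290 genes seen in at least 6 libraries, within 0.05 reads. Tested on simulated data of 2668 genes, this returned all reads exactly for 100% of them.

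The 100 genes, the comparisons and the lists were chosen with earlier results of these data known. Values entered limma (version 3.58.1 under R 4.3.3) as log2(FPKM + 0.1) where the mean over libraries reached 0.1 FPKM, with a variance trend, 15 residual degrees of freedom and two-sided tests. The main model had no block. Fold changes on this scale understate changes of low genes. The replicate number was tested in a model with muscle (10 residual degrees of freedom). In simulated data of 15009 genes with 200 changed between PM and LL, 98.0% of log2 changes of 2 and 32.3% of log2 changes of 1 were called, and 7 of 135 calls were of unchanged genes. For the replicate number, 98.0% were called at an SD of 2 on the log2 scale and 67.7% at an SD of 1, and 16 of 181 calls were of unchanged genes. Every simulated gene had the same spread beyond counting error and, changes apart, the same mean in each muscle. The 100 genes differ between muscles by choice. Their median coefficient of variation was 0.549 in LL and 0.436 in PM, for means of at least 1 FPKM. The simulated rates were not measured for such genes.

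Deviations from the muscle means correlated across all tested genes for each shared number of SOL and PM. There r lay between 0.125 and 0.229 and exceeded 0.1 in 6 of 6, which met the rule set here for pairs. LL numbers did not meet it, and the main model used no pairs. The replicate number as a block was run as an alternative. The labels do not state which libraries share an animal, so a p-value reflects only how these libraries vary, which may be technical.

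Genes named by identifier were, by rule, the 2 with the highest SOL mean, the 2 with the largest ratio, the 2 most different between PM and LL in each direction among those called, the 2 most firmly called for replicate number, the 2 most and 2 least variable in SOL, and the nearest to each limit. Alternatives were the block, other pseudocounts (0.01 and 1), other filters, median-ratio scaling, fits on 12 libraries, medians in the rule and leaving out each library. Voom and a fit lacking 3 libraries (LL 3, SOL 3, SOL 5) were chosen after seeing the data.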

Additional observations from a re-analysis of the deposited data

Results flagged for a closer look

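For the named genes and for the summed share, the highest and the lowest of the 6 libraries of each muscle were compared with the rest by Dixon's ratio. Of 42 sets 8 stood out. Chance flags about 1 in 20 sets, but that rate does not apply to genes named for a wide spread in SOL or for their replicate number, which hold 5 of the 8.

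SOL 2 stood far above the other SOL libraries for 3 genes. ENSOARG00020025540 was at 117 FPKM there and at 32.6 in the next library, ENSOARG00020004197 at 36.9 and 7.77, and ENSOARG00020016763 at 154 and 45.6. ENSOARG00020025540 was also apart in PM 2, at 11.2 FPKM against 4.19 or less.

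ENSOARG00020004484 stood at 21477 FPKM in SOL 5 and at 14960 or less in the other SOL libraries. In LL, ENSOARG00020020622 was at 0.328 FPKM in LL 6 (5 reads) against 0.0600 or less, and ENSOARG00020004563 was at 31.5 FPKM in LL 2 against 16.3 or less. ENSOARG00020016763 was at 6.01 FPKM in LL 4, below the other LL libraries at 11.2 or more.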

How the results depend on the processing

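The count of genes that meet the rule (85 to 109), the calls of SOL against LL and of SOL against PM, the median PM minus LL difference of the 100 genes (0.22 to 0.49) and their share of summed FPKM stayed within 1.5 times or 1 SD of the reported values under each alternative run for them. PM against LL gave 229 calls over all genes. It gave 415 with the replicate block, 131 in the fit on 12 libraries, and 138 to 340 when 1 library was left out, moving by over 1.5 times without PM 1 (150), PM 2 (138), PM 4 (150) and PM 6 (149). The replicate block called 16 of the 100 genes, the 11 among them, and did not move another count by over 1.5 times. LL numbers did not meet the rule for pairs, an r above 0.1 in 6 of 6. Over all tested genes, same-numbered r of LL was 0.0897 to 0.1795 with PM, above 0.1 in 5 of 6. With SOL it was 0.0856 to 0.1885, above 0.1 in 4 of 6. Differently numbered libraries had lower r, at most 0.00704 between LL and PM and 0.0522 between LL and SOL. Of the 11 genes, 4 were called in the fit on 12 libraries, and with 1 library left out 6 to 15 genes were called. Of 297 single results for these 11 genes, 247 stayed past the threshold and 50 did not, and 0 changed direction. Direction could not change with the block, the fit on 12 libraries, another filter or a SOL library left out. Those settings leave the log2 difference between PM and LL as it is. Of 130 single results for the 5 replicate-number calls, 100 stayed past the threshold and 30 did not. The replicate number gave 292 calls over all genes, 72 in the fit on 12 libraries and 541 with voom. Of the 100 genes, 5 were called, 1 in the fit on 12 libraries, 3 with a pseudocount of 0.01, 19 with voom, and 3 to 8 with 1 library left out. It was 3 without LL 6 or SOL 6 and 8 without LL 3 or SOL 5. Without LL 3, SOL 3 and SOL 5 together, 10 genes were called between PM and LL, 7 of them among the 11, and 5 for the replicate number, of which 1 was among the 5. Causes were not tested. Reads of these genes were fewest in LL, where a gene had as few as 6 reads over 6 libraries, and the rule itself keeps them low there.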
